A study of Homo sapiens with 12 samples.

Results

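The genes described here are members of the homeobox families HOX, MEIS, PBX, PKNOX, TGIF, IRX, DLX and MSX and the sine oculis family. They were picked by gene symbol, and 58 of the 25433 genes in the deposited tables carried such a symbol. The 58 were 35 HOX genes (11 HOXA, 9 HOXB, 8 HOXC and 7 HOXD), 14 genes of the TALE class (3 MEIS, 4 PBX, PKNOX1, 2 TGIF and 4 IRX) and 9 genes of the sine oculis, DLX and MSX families (4, 3 and 2). GENCODE release 29 annotates 70 symbols of this form, and the other 12 were not analysed here: HOXB1, HOXC12, HOXD12, HOXD13, PKNOX2, IRX1, IRX6, SIX2, SIX6, DLX3, DLX5 and DLX6.

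The cells were A549, a human lung adenocarcinoma line of alveolar epithelial origin. Control cells were compared with cells given 10 ng/mL TGF-β1, and with cells given TGF-β1 and 40 mM sodium acetate together, each for 2 days and each with 4 libraries. TGF-β1 is a cytokine that moves epithelial cells to a mesenchymal state. Acetate is a fatty acid of short chain, a source of acetyl-CoA. No group had acetate alone, or the same amount of sodium without acetate, and acetate below means TGF-β1 with acetate. Count columns carry codes only (S1 to S4, S15 to S18, S22 to S25), which were placed in the control, TGF-β1 and acetate groups from the authors' table names. No sample label states this placement, and every comparison rests on it.

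Homeobox genes encode transcription factors that bind DNA through a homeodomain. HOX genes lie in 4 clusters whose order along the chromosome follows the body axis along which they act in the embryo, and adult cells often keep the HOX pattern of their site of origin. PBX, MEIS and PKNOX proteins are TALE partners that bind DNA together with HOX proteins, TGIF proteins are TALE repressors that bind SMAD complexes, and IRX, DLX, MSX and sine oculis factors pattern organs such as airway, kidney, limb and face.

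Total counts per library ran from 34698057 to 53936023, and 3 counts, taken as the detection floor, equalled 0.0564 to 0.0856 CPM (the usual scaling of counts, here to TMM-adjusted totals). That floor covers counting error only. All 6 epithelial markers were present, with a summed level of 6038 to 6281 CPM in control, 5581 to 6166 CPM after TGF-β1 and 6675 to 7669 CPM with acetate. Of these 6, 4 were lower and 1 higher after TGF-β1 (median log2 fold change -1.20), and 6 were higher with acetate than with TGF-β1 (median 1.38). The 5 fibroblast markers (PDGFRA, PDGFRB, DCN, LUM and THY1) summed to 4.98 to 5.55 CPM in control, 14.2 to 17.3 CPM with TGF-β1 and 61.2 to 67.9 CPM with acetate. All 5 were called higher after TGF-β1, and 4 were higher and 1 lower with acetate than with TGF-β1. Of the 5 leukocyte markers CD14 and CSF1R were measured, at a sum of 2.00 to 3.50 CPM over all libraries, and of the 5 endothelial markers TEK alone; the other 7 were not analysed here. TEK read 0.0940 to 0.204 CPM in control, 0.463 to 0.735 CPM with TGF-β1 and 0.614 to 1.17 CPM with acetate. It was called higher after TGF-β1 (log2 fold change 2.28). TEK passed the filter on low counts only through its TGF-β1 libraries, so that call is no independent support for a rise. The part of these markers in the results below was not tested. No label says that the 4 libraries of a group are separate cultures, and a p-value then reflects the spread between these libraries only, which may be technical. Fewer cells of a kind and less RNA per cell cannot be told apart in bulk RNA.

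After TGF-β1 the posterior HOXD genes, both MSX genes, DLX1, MEIS1, MEIS3 and PBX3 were higher, while most HOXB genes, MEIS2, TGIF1 and IRX5 were lower. HOXD10 rose from 8.59 ± 0.677 to 23.4 ± 1.08 CPM (SD, n = 4) and MEIS2 fell from 16.8 ± 0.961 to 11.6 ± 0.572 CPM. Of 54 genes tested, 22 were higher, 15 lower and 17 not called at an edgeR adjusted p below 0.05. Against this stood a background of 66.9% of all 22051 tested genes called, 34.1% higher and 32.8% lower, so the share of members called lay near that of all genes. A rise of at least 2-fold was called for 8 members (background 8.92%) and such a fall for 1 (background 8.68%). HOXD4 and DLX2 are among the 8 and passed the filter on low counts only through their TGF-β1 libraries. The groups did not overlap for 34 members, against 61.4% of all genes. The median log2 fold change was 0.11 over the members and 0.02 over all tested genes. HOXD1, HOXD3, IRX4 and SIX3 were not tested in this comparison.

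Adding acetate to TGF-β1 raised most HOXB genes, HOXC10, HOXC13, MEIS3, PBX4, DLX4 and SIX4, and lowered HOXA3, HOXA4, HOXA11, HOXB9, HOXC9, PBX3, PKNOX1, DLX1 and SIX5. MEIS3 went from 42.4 ± 4.06 to 66.9 ± 3.44 CPM and HOXB9 from 16.1 ± 0.909 to 9.61 ± 1.08 CPM. Of 56 members tested, 20 were higher, 19 lower and 17 not called, beside a background of 63.7% of 22336 genes called, 33.3% higher and 30.4% lower. At least 2-fold rises were called for 5 members (background 10.8%) and falls for 2 (background 2.07%). IRX4 is among the 5 and passed the filter on low counts only through its acetate libraries. The groups did not overlap for 37 members (background 57.3%). The median log2 fold change was 0.02 for the members and 0.03 for all genes. Both comparisons use the same TGF-β1 libraries, so their values are not independent. In the plot of HOX fold changes the clusters differ in which way their members moved.

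**Figure D1:**
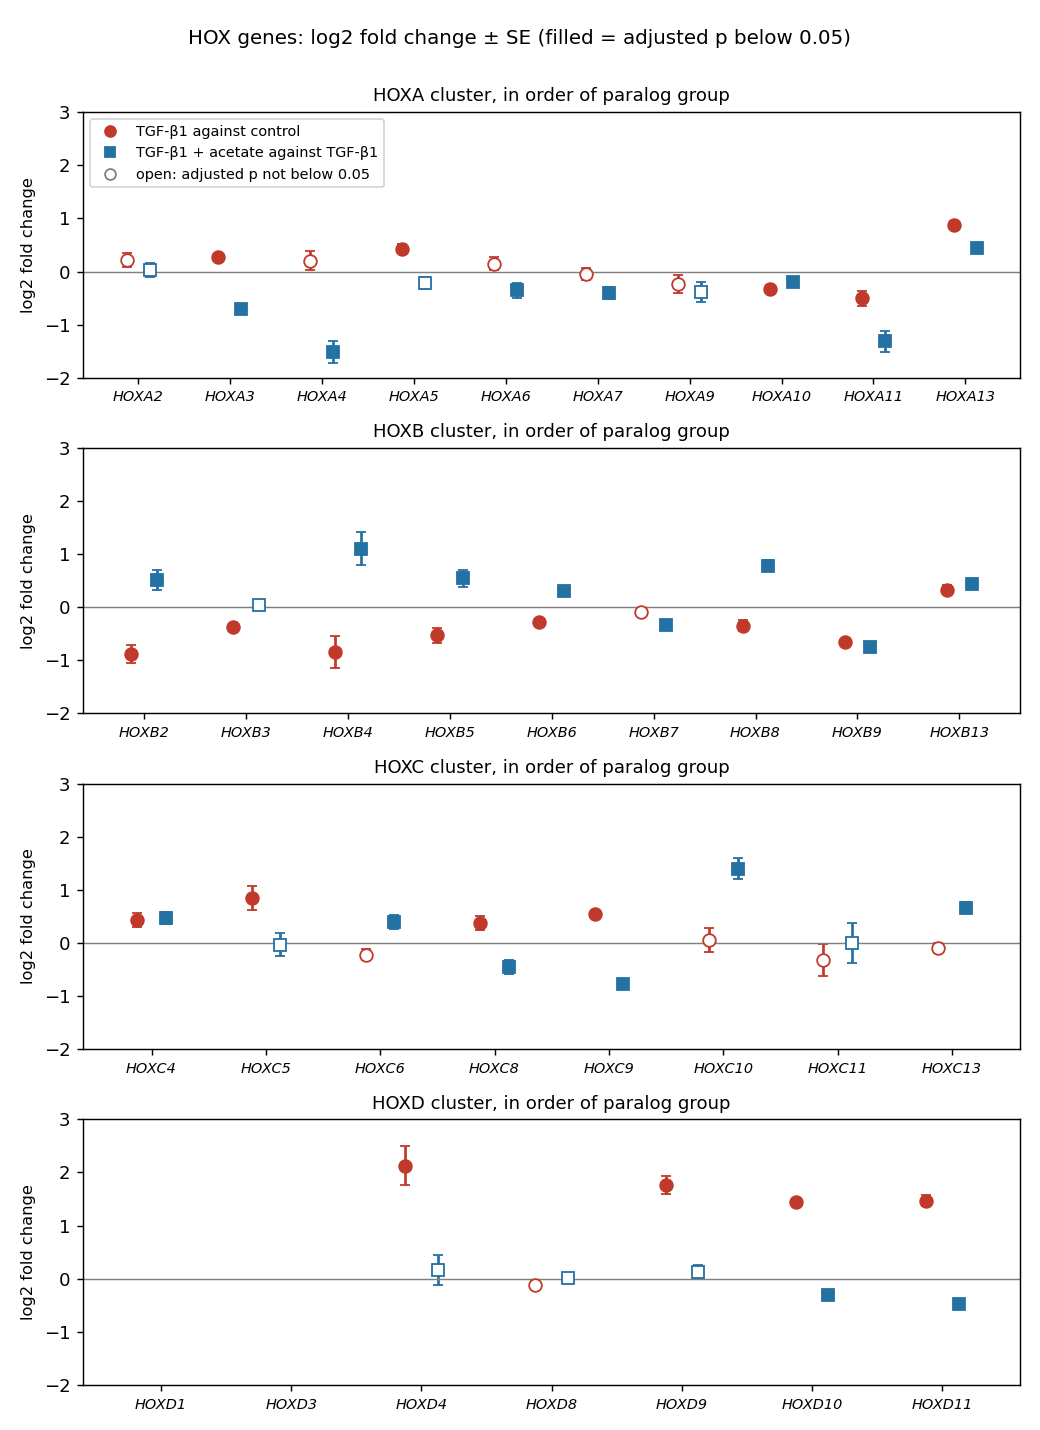
Log2 fold change with its standard error (y axis) for the HOX genes reported here, ordered by paralog group (x axis), in the 4 clusters. Circles are TGF-β1 against control, squares are acetate with TGF-β1 against TGF-β1, filled symbols have an edgeR adjusted p below 0.05, and HOXD1 and HOXD3 were not tested; HOXD4, HOXD9, HOXD10 and HOXD11 lie above 1 for TGF-β1, whereas 7 of 9 HOXB genes are filled circles below 0.

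HOXD genes showed the largest log2 rises of the HOX genes after TGF-β1. The HOXD cluster spans 86.7 kb of chromosome 2 in these files, and 4 of its 5 tested members were higher with TGF-β1, each at least 2-fold. Over all tested genes, 8.92% had such a called rise. HOXD4, among the 4, passed the filter on low counts only through its TGF-β1 libraries, and HOXD1 and HOXD3 were not tested. HOXD11, a limb and kidney patterning gene (ENSG00000128713.12, chromosome 2, 176104216 to 176109754), read 5.51, 4.04, 3.65 and 4.72 CPM in control, 12.1, 11.6, 12.2 and 13.8 CPM with TGF-β1 and 9.44, 7.67, 8.74 and 9.64 CPM with acetate. Each TGF-β1 library lay above each control library, and each acetate library lay between the other groups. Its log2 fold changes were 1.47 ± 0.10 for TGF-β1 (edgeR adjusted p = 1.5e-09) and -0.47 ± 0.08 for acetate (7e-05). HOXD10, also a posterior limb gene (ENSG00000128710.5, chromosome 2, 176108790 to 176119942), read 8.68, 9.10, 7.61 and 8.97 CPM in control, 23.3, 21.9, 24.6 and 23.6 CPM with TGF-β1 and 19.5, 18.02, 17.6 and 19.9 CPM with acetate. The order of the groups was that of HOXD11, without overlap, with log2 fold changes of 1.44 ± 0.06 for TGF-β1 (edgeR adjusted p = 2.4e-12) and -0.31 ± 0.05 for acetate (0.00014). Scaling by library totals moved the acetate value of HOXD10 to -0.18, still called. HOXD10 and HOXD11 share 452 bases of annotated exon on 1 strand, so reads there can be assigned to either.

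HOXD9, the next gene along the cluster (ENSG00000128709.12, chromosome 2, 176122720 to 176124937), read 0.798, 0.592, 0.511 and 0.715 CPM in control, 2.60, 2.05, 2.25 and 2.05 CPM with TGF-β1 and 2.19, 2.86, 2.46 and 2.20 CPM with acetate. TGF-β1 libraries all lay above control ones, and the acetate libraries overlapped those with TGF-β1, with log2 fold changes of 1.76 ± 0.17 for TGF-β1 (edgeR adjusted p = 8.7e-08) and 0.12 ± 0.13 for acetate (0.44). HOXD8 begins 4756 bases beyond the end of HOXD9 and read 6.00, 6.29, 6.28 and 5.60 CPM in control, 5.37, 5.62, 5.80 and 5.41 CPM with TGF-β1 and 5.50, 5.49, 4.75 and 6.41 CPM with acetate. All 3 groups overlapped for HOXD8, and neither change was called, at -0.11 ± 0.07 for TGF-β1 (edgeR adjusted p = 0.19) and 0.01 ± 0.09 for acetate (0.96). HOXD4 was scarce in control, with 7, 3, 4 and 5 counts, against 26, 18, 17 and 13 counts with TGF-β1 and 13, 19, 24 and 24 with acetate. Its log2 fold changes were 2.13 ± 0.37 for TGF-β1 (edgeR adjusted p = 9.4e-05) and 0.17 ± 0.28 for acetate (0.62), and 1178 bases of its exons are shared with another annotated transcript on the same strand. Because HOXD4 entered the first test only through its TGF-β1 libraries, that p-value is no independent support for a rise. HOXD1 and HOXD3, from the anterior end, held at most 10 counts in any TGF-β1 or acetate library. Summed over HOXD4, HOXD8, HOXD9, HOXD10 and HOXD11, the level was 18.2 to 21.1 CPM in control, 41.7 to 45.2 CPM with TGF-β1 and 34.1 to 38.7 CPM with acetate. With library totals HOXD8 was called lower after TGF-β1 (log2 fold change -0.22, edgeR adjusted p = 0.019).

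The stretch before the start site is shown for HOXD11, which rose, for HOXD8, which was not called, and for PBX3, the TALE gene with the largest rise after TGF-β1. The sequences come from RefSeq (GRCh38.p14, plus strand in each case), which held 33 of the 58 members. The stretches shown overlap no exon that GENCODE 29 annotates on the same strand. Capitals mark matches to motifs searched on both strands, namely GGCGCC (a GC-rich SMAD element), TGATNNAT (a joint PBX and HOX element), TGACAG (an element of MEIS and TGIF proteins), CAGAC (a SMAD site) and GTCTAGAC (its palindrome). None of these motifs overlaps another among the matches shown.
HOXD11, chr2:176107030-176107279: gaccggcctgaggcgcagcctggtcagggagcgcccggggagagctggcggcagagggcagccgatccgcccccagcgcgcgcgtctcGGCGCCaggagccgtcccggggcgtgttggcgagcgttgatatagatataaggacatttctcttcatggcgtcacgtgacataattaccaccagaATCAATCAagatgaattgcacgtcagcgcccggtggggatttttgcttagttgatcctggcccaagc
HOXD8, chr2:176129455-176129693: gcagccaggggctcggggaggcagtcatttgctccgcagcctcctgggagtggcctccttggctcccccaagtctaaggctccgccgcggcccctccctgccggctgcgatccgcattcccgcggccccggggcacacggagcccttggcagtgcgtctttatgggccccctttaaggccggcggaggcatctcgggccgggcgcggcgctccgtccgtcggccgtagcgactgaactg
PBX3, chr9:125747933-125748181: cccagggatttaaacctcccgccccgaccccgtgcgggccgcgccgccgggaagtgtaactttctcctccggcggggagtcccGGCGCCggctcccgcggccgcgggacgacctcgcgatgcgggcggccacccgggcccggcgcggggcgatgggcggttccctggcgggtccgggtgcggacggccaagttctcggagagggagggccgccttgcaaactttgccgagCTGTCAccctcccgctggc
HOXD11 holds GGCGCC 162 bases and ATCAATCA 67 bases before its start, PBX3 holds GGCGCC 167 bases and CTGTCA 20 bases before its start, and HOXD8 holds none of the 5 motifs in this window. A match is a description of the letters. Motifs were also present in the windows of DLX1, DLX2, HOXA3, HOXC4, HOXC5, HOXD4 and PKNOX1, called higher after TGF-β1. The windows of HOXD10, HOXA13, MSX1, MSX2, MEIS1, MEIS3 and TGIF2, also called higher, held none. Among genes not called, HOXA2, HOXA4, HOXA7, HOXA9 and PBX4 held motifs, and HOXA6, IRX2 and PBX2 held none. A link between motifs and calls was not tested. CAGAC was in 33.3% of the 33 member windows and 38.0% of all 35116, GGCGCC in 21.2% and 16.4%, TGACAG in 9.09% and 13%, TGATNNAT in 6.06% and 6.47%, and GTCTAGAC in 0 members and 0.182% of all. The window of HOXD11 lies inside the extent that the files give for the gene, as does that of PBX3, because longer transcripts start further upstream.

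HOXB genes moved the other way after TGF-β1. Of the 9 measured, 7 were lower, 1 was higher and 1 was not called, with a median log2 fold change of -0.38, and with acetate 6 were higher and 2 lower. Over all genes 32.8% were lower and 34.1% higher after TGF-β1, and 33.3% were higher and 30.4% lower with acetate. HOXB2, a hindbrain gene, read 1.72, 1.53, 2.02 and 1.41 CPM in control, 0.981, 1.06, 0.8287 and 0.755 CPM with TGF-β1 and 1.61, 1.07, 1.23 and 1.24 CPM with acetate. TGF-β1 libraries were the lowest in all cases, and the log2 fold changes were -0.88 ± 0.17 for TGF-β1 (edgeR adjusted p = 0.00025) and 0.52 ± 0.19 for acetate (0.024). The acetate call was lost without S17, S18 or S22 (0.075, 0.083 and 0.087). HOXB3, which neighbours it, read 16.97, 17.7, 18.5 and 16.3 CPM in control, 14.8, 13.6, 12.8 and 12.2 CPM with TGF-β1 and 13.7, 13.8, 13.8 and 12.9 CPM with acetate. The fall was -0.38 ± 0.06 (edgeR adjusted p = 7.2e-05) without overlap, and the acetate difference was not called at 0.04 ± 0.07 (edgeR adjusted p = 0.67).

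HOXB5, expressed in embryonic lung (ENSG00000120075.5, chromosome 17, 48591257 to 48593961), read 2.35, 2.22, 1.97 and 1.84 CPM in control, 1.69, 1.14, 1.48 and 1.44 CPM with TGF-β1 and 2.42, 2.26, 1.70 and 2.04 CPM with acetate. It fell without overlap and then rose without overlap, at -0.53 ± 0.15 for TGF-β1 (edgeR adjusted p = 0.004) and 0.55 ± 0.16 for acetate (0.0071). HOXB6 read 10.9, 10.9, 12.95 and 10.9 CPM in control, 9.66, 9.30, 9.23 and 9.04 CPM with TGF-β1 and 11.1, 11.6, 11.7 and 11.1 CPM with acetate, and its groups likewise did not overlap in either comparison, at -0.28 ± 0.07 for TGF-β1 (edgeR adjusted p = 0.0017) and 0.30 ± 0.06 for acetate (0.00042). Means with acetate and in control were 2.10 and 2.10 CPM for HOXB5 and 11.4 and 11.4 CPM for HOXB6. HOXB8 (ENSG00000120068.6, chromosome 17, 48611377 to 48614939), a regulator of myeloid and spinal patterning, read 3.42, 2.84, 3.07 and 2.84 CPM in control, 2.23, 2.25, 2.53 and 2.48 CPM with TGF-β1 and 3.92, 3.85, 4.47 and 4.05 CPM with acetate. Its acetate libraries lay above both other groups, with log2 fold changes of -0.35 ± 0.11 for TGF-β1 (edgeR adjusted p = 0.01) and 0.79 ± 0.10 for acetate (6.8e-06). HOXB4, at a mean below 1 CPM in every group, had -0.85 ± 0.30 and 1.10 ± 0.31 (edgeR adjusted p = 0.021 and 0.0059), and the first call was lost without S18 (0.058).

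HOXB9, a posterior gene of thorax and mammary gland (ENSG00000170689.9, chromosome 17, 48621159 to 48626356), fell in steps. It read 24.5, 25.6, 25.4 and 26.4 CPM in control, 15.8, 16.2, 15.2 and 17.3 CPM with TGF-β1 and 11.2, 9.10, 8.79 and 9.36 CPM with acetate. No group overlapped another, and the changes were -0.65 ± 0.05 for TGF-β1 (edgeR adjusted p = 5.4e-09) and -0.74 ± 0.07 for acetate (3.7e-07). HOXB7 (ENSG00000260027.4, chromosome 17, 48607227 to 48633572) read 22.5, 24.5, 26.0 and 25.9 CPM in control, 22.3, 21.7, 23.6 and 24.8 CPM with TGF-β1 and 18.6, 18.2, 19.1 and 17.2 CPM with acetate. The first pair of groups overlapped and the acetate libraries lay below both, at -0.09 ± 0.06 for TGF-β1 (edgeR adjusted p = 0.16) and -0.33 ± 0.05 for acetate (6.8e-05). HOXB7 was called lower after TGF-β1 without S1 (edgeR adjusted p = 0.017) or with library totals (-0.19, 0.0043), and its acetate value was -0.20 with library totals. HOXB13, a prostate and hindgut gene at the far end of the cluster (ENSG00000159184.7, chromosome 17, 48724763 to 48729178), was the HOXB gene that rose in both comparisons. It read 5.90, 5.37, 5.59 and 6.21 CPM in control, 6.55, 7.85, 6.73 and 7.96 CPM with TGF-β1 and 8.50, 9.96, 10.2 and 10.3 CPM with acetate, in 3 groups without overlap, with changes of 0.33 ± 0.08 for TGF-β1 (edgeR adjusted p = 0.0023) and 0.44 ± 0.09 for acetate (0.00032). HOXB3 shares exons with HOXB4 and HOXB6, so part of their reads cannot be told apart.

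**Figure D2:**
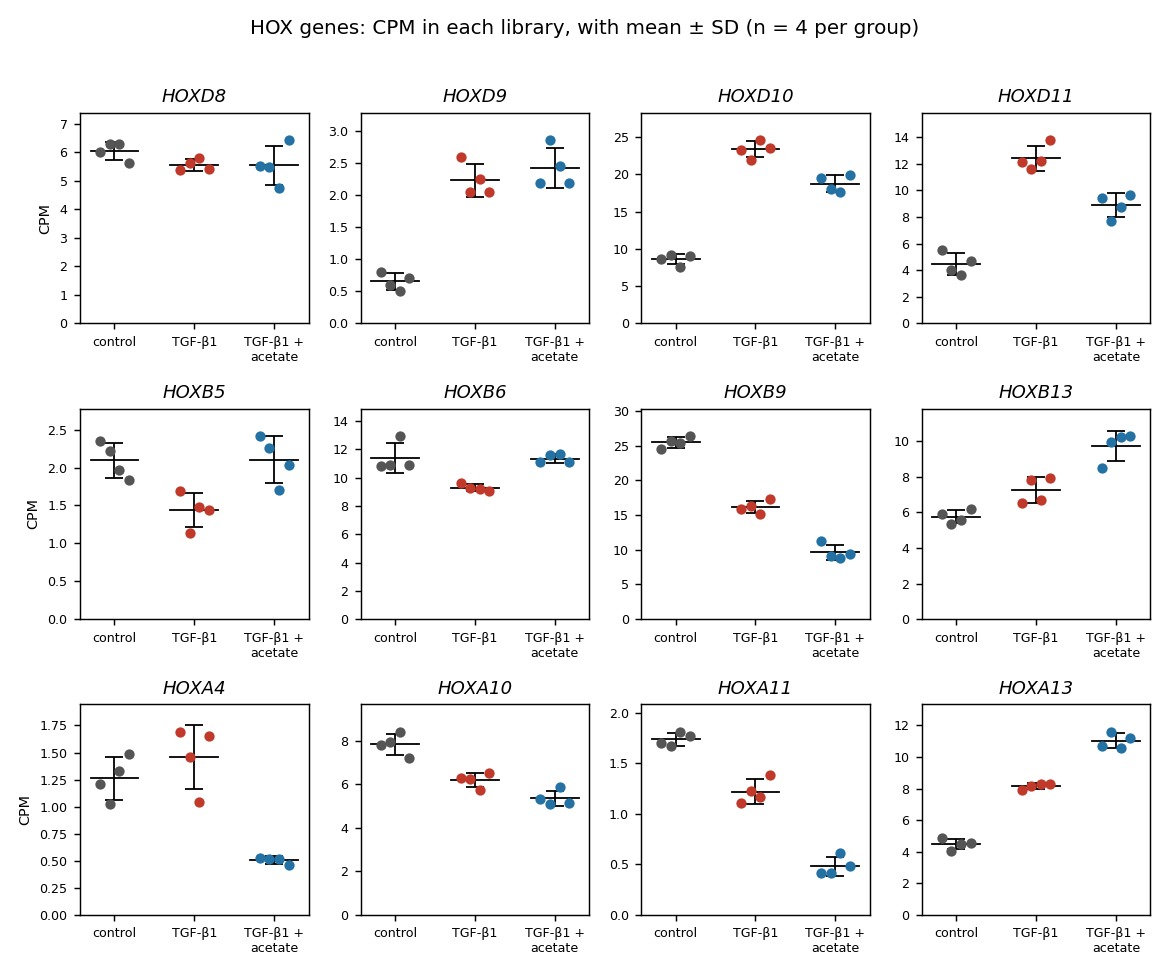
CPM (y axis, from 0) of 12 HOX genes in control, TGF-β1 and TGF-β1 with acetate; points are libraries, and bars are the mean with 1 SD (n = 4). HOXD10 and HOXD11 are highest with TGF-β1, HOXB9 and HOXA11 step down from control to acetate, and HOXA13 and HOXB13 step up.

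In the HOXA cluster TGF-β1 called 4 genes higher and 2 lower of 11, and acetate called 1 higher and 6 lower. The shares over all genes were 34.1% higher and 32.8% lower for TGF-β1, and 33.3% and 30.4% for acetate. With library totals the acetate counts were 2 higher and 3 lower, and without S16, S18, S23 or S25 4 were lower. HOXA2, which patterns the second pharyngeal arch, read 1.49, 1.65, 1.43 and 1.34 CPM in control, 1.62, 1.91, 1.80 and 1.53 CPM with TGF-β1 and 1.69, 1.72, 1.73 and 1.76 CPM with acetate. It overlapped in both comparisons and was not called, at 0.22 ± 0.14 for TGF-β1 (edgeR adjusted p = 0.18) and 0.02 ± 0.13 for acetate (0.9).

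HOXA3, a gene of thymus and parathyroid development, read 8.97, 9.19, 9.76 and 9.78 CPM in control, 11.3, 12.7, 10.5 and 10.8 CPM with TGF-β1 and 7.42, 6.27, 6.81 and 7.10 CPM with acetate. TGF-β1 libraries were highest and acetate libraries lowest without overlap, at 0.27 ± 0.07 for TGF-β1 (edgeR adjusted p = 0.0026) and -0.70 ± 0.08 for acetate (1.2e-06). The rise of HOXA3 was 0.17 with library totals, still called. HOXA4 (ENSG00000197576.13, chromosome 7, 27128507 to 27130799) read 1.21, 1.02, 1.33 and 1.49 CPM in control, 1.69, 1.46, 1.05 and 1.66 CPM with TGF-β1 and 0.528, 0.520, 0.520 and 0.458 CPM with acetate. The control and TGF-β1 libraries overlapped, and acetate lay below both, at 0.21 ± 0.18 for TGF-β1 (edgeR adjusted p = 0.33) and -1.51 ± 0.21 for acetate (1.1e-05). HOXA3 and HOXA4 overlap exons of the antisense genes HOXA-AS2 and HOXA-AS3, and the strand setting of the counting is not given in the sources used here.

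HOXA5, a lung and airway development gene (ENSG00000106004.4, chromosome 7, 27141052 to 27143668), read 3.07, 3.18, 2.99 and 2.78 CPM in control, 4.00, 4.17, 3.85 and 4.19 CPM with TGF-β1 and 4.14, 3.46, 3.33 and 2.93 CPM with acetate. It rose without overlap after TGF-β1, and the acetate libraries overlapped both, at 0.43 ± 0.09 for TGF-β1 (edgeR adjusted p = 0.0005) and -0.22 ± 0.11 for acetate (0.095); it was called lower with acetate without S22 (0.019). HOXA6 read 1.68, 2.08, 1.81 and 1.82 CPM in control, 1.94, 2.14, 1.97 and 2.12 CPM with TGF-β1 and 1.97, 1.40, 1.51 and 1.47 CPM with acetate, and HOXA7, which acts in axial patterning, read 3.95, 3.27, 2.73 and 3.65 CPM in control, 3.73, 3.28, 3.02 and 3.17 CPM with TGF-β1 and 2.31, 2.44, 2.32 and 2.75 CPM with acetate. Neither was called after TGF-β1, at 0.14 ± 0.12 (edgeR adjusted p = 0.31) and -0.05 ± 0.12 (edgeR adjusted p = 0.73). Both were called lower with acetate, HOXA6 at -0.36 ± 0.14 (edgeR adjusted p = 0.039) with overlap and HOXA7 at -0.41 ± 0.11 (edgeR adjusted p = 0.0054) without. The call of HOXA6 was lost without S16, S18, S23, S24 or S25 (0.063, 0.065, 0.1, 0.074 and 0.092) and with library totals (-0.22, 0.18), and that of HOXA7 with library totals (-0.28, 0.051). HOXA-AS3 covers 505 of the 1285 exon bases of HOXA6 and 1507 of the 2411 of HOXA7 on the opposite strand.

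HOXA9, a haematopoietic and limb gene, read 0.983, 1.22, 1.05 and 0.959 CPM in control. It read 1.03, 0.770, 0.947 and 0.804 CPM with TGF-β1 and 0.556, 0.702, 0.709 and 0.733 CPM with acetate. Neither of the first 2 comparisons called it, at -0.23 ± 0.17 for TGF-β1 (edgeR adjusted p = 0.25) and -0.39 ± 0.20 for acetate (0.1). Its acetate libraries lay below those with TGF-β1 and those of control. Against control HOXA9 was called lower with acetate, at -0.63 ± 0.18 (edgeR adjusted p = 0.0035). HOXA10 (ENSG00000253293.4, chromosome 7, 27170591 to 27180261), which acts in uterus and limb, read 7.80, 7.92, 8.40 and 7.20 CPM in control, 6.28, 6.25, 5.72 and 6.53 CPM with TGF-β1 and 5.33, 5.10, 5.86 and 5.13 CPM with acetate. It fell without overlap after TGF-β1 and overlapped between TGF-β1 and acetate, at -0.33 ± 0.07 for TGF-β1 (edgeR adjusted p = 0.0008) and -0.20 ± 0.08 for acetate (0.048). That second call was lost without S15, S16, S18, S22, S23 or S25 (0.05, 0.05, 0.073, 0.077, 0.11 and 0.12), with DESeq2 (0.051) or limma-voom (0.052), and with library totals (-0.07, 0.50). HOXA11 (ENSG00000005073.5, chromosome 7, 27181510 to 27185223), a gene of limb, kidney and uterus, read 1.70, 1.67, 1.81 and 1.77 CPM in control, 1.10, 1.23, 1.16 and 1.39 CPM with TGF-β1 and 0.417, 0.416, 0.614 and 0.481 CPM with acetate. Its groups stepped down without overlap, at -0.50 ± 0.14 for TGF-β1 (edgeR adjusted p = 0.0039) and -1.31 ± 0.20 for acetate (2.9e-05). HOXA11-AS covers 717 bases of its exons on the opposite strand, and HOXA10-AS covers 422 of HOXA9 and 608 of HOXA10.

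HOXA13, the most posterior HOXA gene, which patterns limb ends and hindgut (ENSG00000106031.7, chromosome 7, 27193503 to 27200106), read 4.85, 4.06, 4.50 and 4.53 CPM in control, 7.92, 8.16, 8.27 and 8.28 CPM with TGF-β1 and 10.7, 11.6, 10.6 and 11.2 CPM with acetate. It stepped up without overlap, at 0.87 ± 0.07 for TGF-β1 (edgeR adjusted p = 2.4e-08) and 0.44 ± 0.06 for acetate (1.2e-05). Against control the acetate libraries differed by 1.30 ± 0.07 (edgeR adjusted p = 1.9e-12). The summed HOXA level was 37.8 to 38.8 CPM in control, 42.2 to 46.4 CPM with TGF-β1 and 37.7 to 40.3 CPM with acetate. HOXA13 rose and HOXA11 fell within that sum.

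The 8 HOXC genes had a summed level of 16.98 to 19.02 CPM in control, 19.7 to 22.4 CPM with TGF-β1 and 20.7 to 22.5 CPM with acetate. TGF-β1 called 4 of 8 higher and none lower, and acetate called 4 higher and 2 lower. Beside this, 34.1% of all genes were higher and 32.8% lower after TGF-β1, and 33.3% and 30.4% with acetate. HOXC4, an anterior member of the cluster, read 2.35, 2.08, 1.89 and 1.82 CPM in control, 2.48, 3.22, 2.74 and 2.58 CPM with TGF-β1 and 4.08, 3.64, 3.95 and 3.43 CPM with acetate. It stepped up without overlap, at 0.43 ± 0.13 for TGF-β1 (edgeR adjusted p = 0.006) and 0.47 ± 0.11 for acetate (0.0019). HOXC6 read 3.26, 3.00, 3.22 and 3.10 CPM in control, 3.06, 2.28, 2.68 and 2.70 CPM with TGF-β1 and 3.22, 3.12, 4.33 and 3.41 CPM with acetate. Libraries of control and TGF-β1 overlapped and acetate lay above TGF-β1, at -0.22 ± 0.11 for TGF-β1 (edgeR adjusted p = 0.086) and 0.40 ± 0.13 for acetate (0.014). HOXC6 was called lower after TGF-β1 without S15 (0.036) or with library totals (-0.32, edgeR adjusted p = 0.019), and its acetate call was lost without S16 or S24 (0.053 and 0.061). HOXC4, HOXC5 and HOXC6 share annotated exons, so their reads are not independent. HOXC5, below 1 CPM on average in every group, was called higher after TGF-β1.

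HOXC8 (ENSG00000037965.5, chromosome 12, 54009106 to 54012362), a thoracic patterning gene, read 3.03, 2.84, 2.68 and 2.22 CPM in control, 3.46, 4.34, 2.86 and 3.41 CPM with TGF-β1 and 2.33, 2.52, 2.58 and 2.66 CPM with acetate. Control and TGF-β1 overlapped, and acetate lay below TGF-β1, at 0.38 ± 0.13 for TGF-β1 (edgeR adjusted p = 0.02) and -0.46 ± 0.13 for acetate (0.0061). The first call was lost without S4 or S16 (0.095 and 0.078) and with library totals (0.28, edgeR adjusted p = 0.083). HOXC9 (ENSG00000180806.4, chromosome 12, 53994895 to 54003337), its neighbour and also thoracic, read 5.2, 4.84, 5.16 and 4.95 CPM in control, 7.57, 7.65, 7.06 and 6.87 CPM with TGF-β1 and 4.44, 4.84, 4.16 and 3.57 CPM with acetate. TGF-β1 libraries lay above both other groups, at 0.54 ± 0.07 for TGF-β1 (edgeR adjusted p = 6.1e-06) and -0.77 ± 0.10 for acetate (3.9e-06). Acetate stood below control at -0.25 ± 0.09 (edgeR adjusted p = 0.02), a call lost without S25 (0.092) and with library totals (-0.20, 0.061).

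HOXC10 (ENSG00000180818.4, chromosome 12, 53985065 to 53990279), a hindlimb gene, read 0.532, 0.592, 0.613 and 0.639 CPM in control, 0.613, 0.799, 0.454 and 0.633 CPM with TGF-β1 and 1.72, 1.51, 1.77 and 1.47 CPM with acetate. The control and TGF-β1 libraries overlapped at 0.05 ± 0.22 (edgeR adjusted p = 0.84), and all acetate libraries lay above them at 1.40 ± 0.19 (edgeR adjusted p = 9.1e-06). HOXC13 (ENSG00000123364.4, chromosome 12, 53938765 to 53946544), a gene of hair and nail, read 3.54, 3.10, 3.09 and 3.23 CPM in control, 3.26, 2.88, 2.88 and 3.07 CPM with TGF-β1 and 5.00, 3.98, 4.82 and 5.197 CPM with acetate. Here too the acetate libraries lay above both other groups, at -0.10 ± 0.10 for TGF-β1 (edgeR adjusted p = 0.4) and 0.66 ± 0.11 for acetate (4.8e-05). HOXC11 was not called in either comparison, at a mean of 0.433 CPM in control, 0.350 after TGF-β1 and 0.352 with acetate.

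Sorted by position along the body axis, the anterior HOX genes (paralog groups 1 to 3) had 2 higher and 2 lower of 5 tested after TGF-β1, the central genes (groups 4 to 8) 5 and 4 of 15, and the posterior genes (groups 9 to 13) 6 and 3 of 13. With acetate the same counts were 1 and 1, 6 and 5, and 4 and 6. The background shares higher and lower were 34.1% and 32.8% for TGF-β1, and 33.3% and 30.4% for acetate. No class moved in 1 direction in either comparison. The test of a difference between classes was not run.

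Among the TALE partners PBX3 had the largest log2 rise after TGF-β1. PBX3 (ENSG00000167081.16, chromosome 9, 125747345 to 125967377), a partner known from blood and neural cells, read 15.1, 14.8, 14.1 and 15.7 CPM in control, 37.6, 35.0, 33.0 and 36.0 CPM with TGF-β1 and 23.2, 25.2, 23.2 and 23.9 CPM with acetate. It was highest with TGF-β1, with acetate in between and no overlap, at 1.25 ± 0.05 for TGF-β1 (edgeR adjusted p = 1.3e-12) and -0.56 ± 0.05 for acetate (9.5e-08). PBX2, the broadly expressed member, read 25, 22.5, 25.8 and 23.6 CPM in control, 25.7, 26.2, 25.7 and 25.6 CPM with TGF-β1 and 21.0, 21.7, 20.8 and 21.0 CPM with acetate. Libraries of control and TGF-β1 overlapped, and acetate lay below both, at 0.10 ± 0.05 for TGF-β1 (edgeR adjusted p = 0.08) and -0.28 ± 0.04 for acetate (3.1e-05); with library totals the acetate value was -0.15. PBX4 (ENSG00000105717.13, chromosome 19, 19561707 to 19618916), known from testis, read 0.307, 0.327, 0.358 and 0.470 CPM in control, 0.245, 0.685, 0.414 and 0.268 CPM with TGF-β1 and 1.17, 0.962, 1.16 and 1.05 CPM with acetate. Acetate libraries lay above the other 2 groups, which overlapped, at 0.12 ± 0.33 for TGF-β1 (edgeR adjusted p = 0.77) and 1.46 ± 0.27 for acetate (0.00021).

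The 3 MEIS genes each followed another course. MEIS1 (ENSG00000143995.19, chromosome 2, 66433452 to 66573869), a cofactor of posterior HOX proteins, read 5.02, 4.57, 4.34 and 4.18 CPM in control, 8.63, 7.96, 8.90 and 9.01 CPM with TGF-β1 and 9.11, 8.58, 8.20 and 8.84 CPM with acetate. It was higher after TGF-β1 without overlap and not called with acetate, where libraries overlapped, at 0.94 ± 0.08 for TGF-β1 (edgeR adjusted p = 1.9e-08) and 0.02 ± 0.07 for acetate (0.85). MEIS2 (ENSG00000134138.19, chromosome 15, 36889204 to 37101299), its close relative, read 17.4, 15.4, 16.9 and 17.4 CPM in control, 12.2, 10.8, 11.5 and 11.7 CPM with TGF-β1 and 8.33, 7.77, 8.58 and 8.49 CPM with acetate. It stepped down without overlap, at -0.53 ± 0.06 for TGF-β1 (edgeR adjusted p = 5.7e-07) and -0.47 ± 0.06 for acetate (1.2e-05). MEIS3 (ENSG00000105419.17, chromosome 19, 47403124 to 47419523), the third MEIS gene, read 24.3, 23.7, 23.4 and 25.4 CPM in control, 36.4, 43.9, 43.6 and 45.5 CPM with TGF-β1 and 69.4, 62.5, 69.9 and 65.8 CPM with acetate. It stepped up without overlap, at 0.81 ± 0.06 for TGF-β1 (edgeR adjusted p = 3.2e-09) and 0.67 ± 0.06 for acetate (6.2e-08), and acetate stood 1.47 ± 0.06 (edgeR adjusted p = 3.4e-14) above control. PKNOX1, which competes with MEIS for PBX, read 8.50, 7.82, 8.10 and 8.12 CPM in control, 12.2, 14.8, 11.3 and 11.9 CPM with TGF-β1 and 8.33, 8.92, 9.48 and 8.10 CPM with acetate. TGF-β1 libraries lay above both other groups, at 0.62 ± 0.08 for TGF-β1 (edgeR adjusted p = 2.7e-06) and -0.51 ± 0.09 for acetate (8.6e-05). Acetate and control overlapped for PKNOX1, at 0.10 ± 0.08 (edgeR adjusted p = 0.29).

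**Figure D3:**
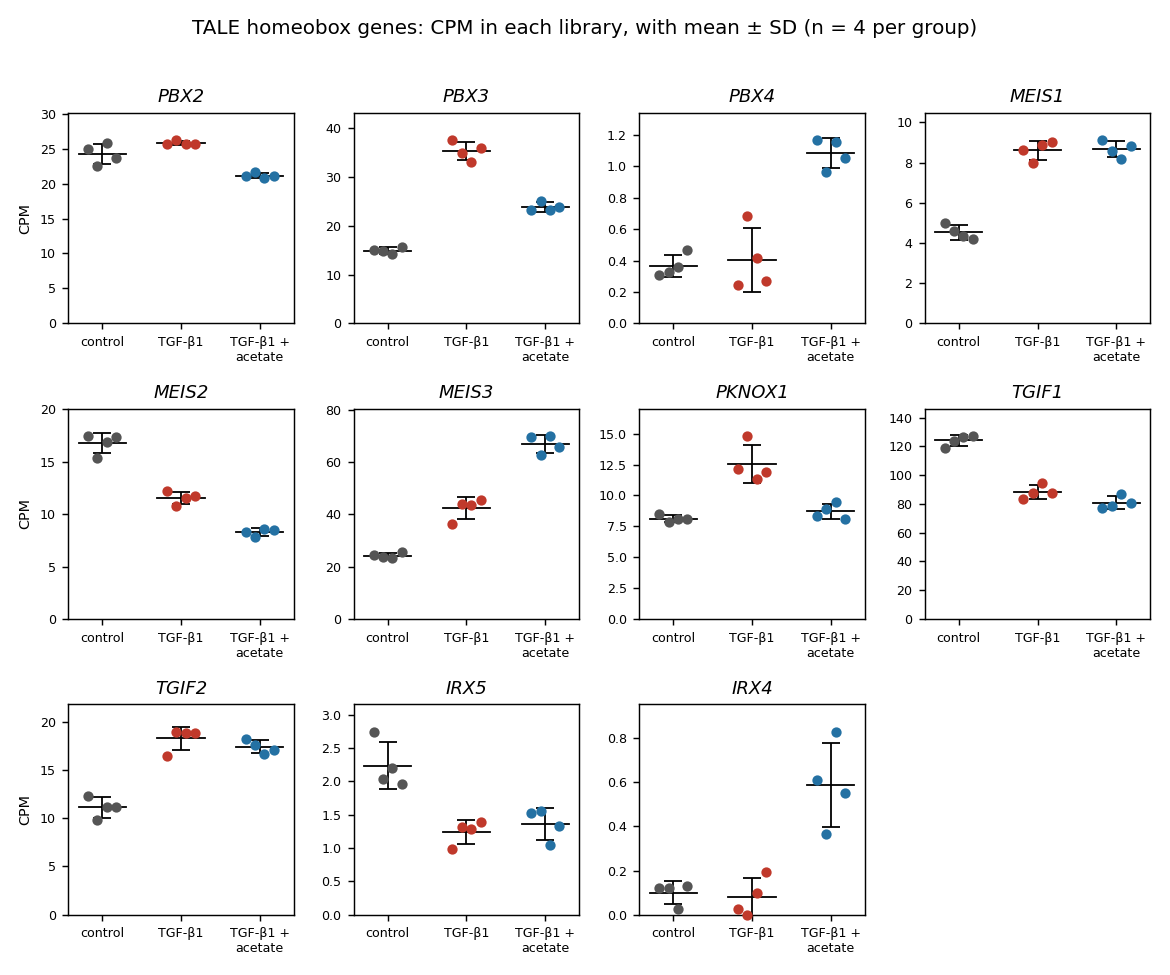
CPM (y axis, from 0) of 11 TALE genes in control, TGF-β1 and TGF-β1 with acetate; points are libraries, and bars are the mean with 1 SD (n = 4). PBX3 is highest with TGF-β1, while MEIS2 steps down and MEIS3 steps up across the groups.

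TGIF1 and TGIF2 encode repressors that bind SMAD2 and SMAD3 and limit the response to TGF-β. TGIF1 (ENSG00000177426.20, chromosome 18, 3411608 to 3459978) read 119, 124, 127 and 127 CPM in control, 83.2, 87.4, 94.4 and 87.8 CPM with TGF-β1 and 77.3, 78.3, 87.0 and 80.6 CPM with acetate. It fell without overlap after TGF-β1 at -0.49 ± 0.04 (edgeR adjusted p = 1.7e-08). With acetate the libraries overlapped those with TGF-β1, at -0.12 ± 0.05 (edgeR adjusted p = 0.035), a call lost without S17, S22, S23 or S25 (0.054, 0.099, 0.091 and 0.067) and, with library totals, turned to 0.01 (0.78). TGIF2 (ENSG00000118707.9, chromosome 20, 36573488 to 36593950) read 12.3, 9.80, 11.2 and 11.1 CPM in control, 16.4, 18.9, 18.8 and 18.9 CPM with TGF-β1 and 18.3, 17.6, 16.7 and 17.1 CPM with acetate. It rose without overlap after TGF-β1, while acetate overlapped TGF-β1, at 0.72 ± 0.07 for TGF-β1 (edgeR adjusted p = 1.1e-07) and -0.06 ± 0.06 for acetate (0.36); it was called lower with acetate without S15 (0.045).

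The IRX genes pattern airway, heart and limb. IRX5 (ENSG00000176842.14, chromosome 16, 54930862 to 54934485) read 2.74, 2.04, 2.20 and 1.96 CPM in control, 0.981, 1.31, 1.28 and 1.39 CPM with TGF-β1 and 1.53, 1.56, 1.04 and 1.33 CPM with acetate, and was lower after TGF-β1 without overlap, at -0.84 ± 0.15 for TGF-β1 (edgeR adjusted p = 0.00015) and 0.14 ± 0.18 for acetate (0.51). IRX2 read 2.72, 2.69, 3.42 and 3.40 CPM in control, 3.75, 3.45, 3.10 and 4.41 CPM with TGF-β1 and 3.47, 3.64, 3.64 and 3.66 CPM with acetate, and IRX3 read 4.16, 3.35, 3.63 and 3.61 CPM in control, 3.11, 3.82, 2.98 and 2.85 CPM with TGF-β1 and 3.03, 3.09, 3.26 and 2.93 CPM with acetate. Neither was called, with IRX2 at 0.27 ± 0.13 for TGF-β1 (edgeR adjusted p = 0.07) and -0.01 ± 0.11 for acetate (0.92) and IRX3 at -0.21 ± 0.11 for TGF-β1 (edgeR adjusted p = 0.11) and -0.03 ± 0.11 for acetate (0.81). After TGF-β1, IRX2 was called higher without S17 (0.024) and IRX3 lower without S2 or S16 (0.043 and 0.026) or with library totals (-0.31, edgeR adjusted p = 0.023). IRX4, a gene of ventricular heart muscle, had 6, 6, 1 and 7 counts in control, 1, 0, 5 and 8 counts with TGF-β1 and 22, 14, 35 and 24 counts with acetate. All acetate libraries were above the others, at 2.79 ± 0.50 (edgeR adjusted p = 0.00014) against TGF-β1 and 2.46 ± 0.46 (edgeR adjusted p = 9.2e-05) against control, from low counts. In both fits IRX4 passed the filter on low counts only through its acetate libraries, so these p-values are no independent support for a rise.

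Both MSX genes, targets of BMP signalling in limb and face, were higher after TGF-β1. MSX2 (ENSG00000120149.8, chromosome 5, 174724533 to 174730893) read 5.32, 5.04, 4.44 and 5.44 CPM in control, 12.6, 13.5, 12.2 and 12.5 CPM with TGF-β1 and 13.6, 14.0, 14.7 and 13.9 CPM with acetate. TGF-β1 lay above control and acetate just above TGF-β1 without overlap, at 1.32 ± 0.07 for TGF-β1 (edgeR adjusted p = 7e-11) and 0.16 ± 0.06 for acetate (0.023). The smaller second call was lost without S15, S17, S18 or S24 (0.082, 0.13, 0.094 and 0.073) and with DESeq2 (adjusted p = 0.068), and its value was 0.29 with library totals. MSX1 (ENSG00000163132.6, chromosome 4, 4859666 to 4863936) read 3.07, 2.69, 2.78 and 2.76 CPM in control, 3.90, 4.94, 3.75 and 4.38 CPM with TGF-β1 and 5.36, 3.98, 4.63 and 4.33 CPM with acetate. It rose without overlap, and acetate overlapped TGF-β1, at 0.58 ± 0.11 for TGF-β1 (edgeR adjusted p = 0.00014) and 0.12 ± 0.11 for acetate (0.36).

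DLX1 (ENSG00000144355.14, chromosome 2, 172084740 to 172089677), a forebrain gene, read 1.47, 0.980, 1.23 and 1.35 CPM in control, 2.99, 2.60, 3.02 and 3.29 CPM with TGF-β1 and 1.92, 1.27, 1.39 and 1.65 CPM with acetate. TGF-β1 libraries lay above both other groups, at 1.24 ± 0.14 for TGF-β1 (edgeR adjusted p = 6.4e-07) and -0.93 ± 0.14 for acetate (3.2e-05), and acetate overlapped control at 0.30 ± 0.16 (edgeR adjusted p = 0.1). DLX4 (ENSG00000108813.10, chromosome 17, 49968970 to 49974959), a gene expressed in placenta, read 1.88, 1.78, 1.86 and 1.28 CPM in control, 1.59, 1.37, 1.40 and 1.32 CPM with TGF-β1 and 3.58, 3.02, 3.83 and 2.56 CPM with acetate. Acetate libraries lay above both other groups, at -0.25 ± 0.16 for TGF-β1 (edgeR adjusted p = 0.17) and 1.20 ± 0.15 for acetate (3.5e-06), and DLX4 was called lower after TGF-β1 without S4 (0.028). DLX2, the neighbour of DLX1, averaged 0.102 CPM in control, 0.430 after TGF-β1 and 0.686 with acetate, at 2.00 ± 0.36 for TGF-β1 (edgeR adjusted p = 0.00011) and 0.70 ± 0.27 for acetate (0.033). DLX2 entered the first test only through its TGF-β1 libraries, so that p-value is no independent support for a rise. Its acetate call was lost without S15, S17, S18 or S24 (0.1, 0.078, 0.074 and 0.15) and with DESeq2 (0.062).

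Sine oculis genes encode factors that act with EYA phosphatases in kidney, muscle and sense organs. SIX4 (ENSG00000100625.8, chromosome 14, 60709528 to 60724348) read 9.17, 8.82, 8.58 and 8.90 CPM in control, 8.95, 7.28, 7.54 and 7.45 CPM with TGF-β1 and 11, 12.01, 11.3 and 11.9 CPM with acetate. Control and TGF-β1 overlapped, and acetate lay above both, at -0.18 ± 0.07 for TGF-β1 (edgeR adjusted p = 0.041) and 0.58 ± 0.08 for acetate (6.7e-06). The fall of SIX4 after TGF-β1 was lost without S1, S16, S17 or S18 (0.058, 0.11, 0.1 and 0.11) and was -0.28 with library totals. Without S17 no sine oculis, DLX or MSX gene was called lower, and without S1, S15, S16 or S18 just 1 was. SIX5 (ENSG00000177045.7, chromosome 19, 45764785 to 45769226), next to the DMPK gene, read 24.6, 24.98, 24.7 and 26.1 CPM in control, 23.9, 27.7, 25.6 and 28.3 CPM with TGF-β1 and 18.7, 15.8, 19.4 and 16.6 CPM with acetate. Acetate libraries lay below both other groups, at 0.08 ± 0.05 for TGF-β1 (edgeR adjusted p = 0.22) and -0.57 ± 0.07 for acetate (2.7e-06). SIX5 was called higher after TGF-β1 without S15 (0.036), and antisense genes, DM1-AS among them, cover 2110 bases of its exons. SIX3, a forebrain and eye gene, had 2, 2, 2 and 0 counts in control, 12, 10, 8 and 12 counts with TGF-β1 and 14, 16, 17 and 14 counts with acetate. The control counts of SIX3 lay under the floor of 3 in each library.

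**Figure D4:**
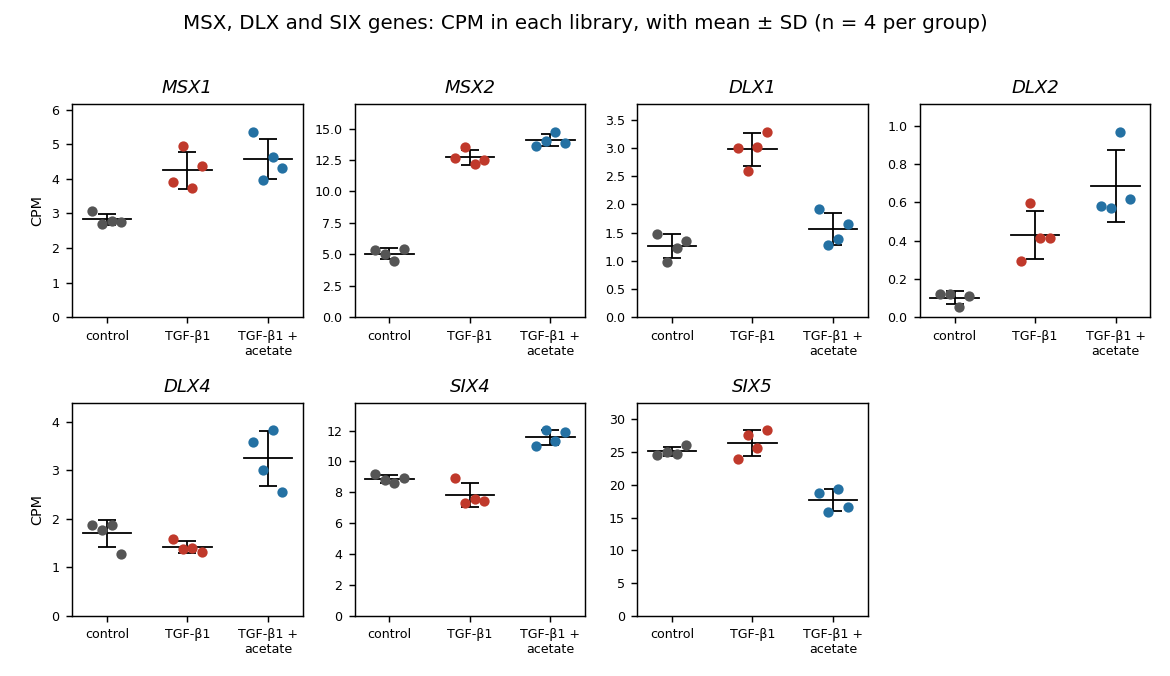
CPM (y axis, from 0) of the MSX genes, the 3 DLX genes, SIX4 and SIX5 in control, TGF-β1 and TGF-β1 with acetate; points are libraries, and bars are the mean with 1 SD (n = 4). MSX2 and DLX1 rise with TGF-β1, DLX4 and SIX4 are highest with acetate, and SIX5 is lowest there.

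The comparison of acetate with control, from 1 model over the 12 libraries, sets the members beside their untreated level. Of 56 tested, 24 were higher, 17 lower and 15 not called, beside a background of 70.6% of 22742 genes called, 36.1% higher and 34.4% lower. At least 2-fold rises were called for 11 members (background 14.3%) and falls for 4 (background 5.47%), and the groups did not overlap for 43 members (background 64.0%). DLX2, HOXD4, IRX4 and SIX3 are among the 11, and no control library of theirs reached the filter on low counts. The median log2 fold change was 0.21 for the members and 0.02 for all genes. The 4 falls of at least 2-fold were HOXA11 at -1.83 ± 0.17 (edgeR adjusted p = 7.2e-09), HOXB9 at -1.41 ± 0.07 (edgeR adjusted p = 3e-13), HOXA4 at -1.31 ± 0.20 (edgeR adjusted p = 9.9e-06) and MEIS2 at -1.02 ± 0.06 (edgeR adjusted p = 1.3e-11). HOXD10 stood above control at 1.12 ± 0.06 (edgeR adjusted p = 6e-12), HOXD9 at 1.87 ± 0.16 (edgeR adjusted p = 3.4e-09) and MSX2 at 1.47 ± 0.07 (edgeR adjusted p = 2.3e-13). TGIF1 stood below control at -0.62 ± 0.04 (edgeR adjusted p = 2.2e-10). HOXB5 and HOXB6 were not called, with standard errors of 0.14 and 0.07 on the log2 scale (edgeR adjusted p = 0.99 for HOXB5).

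Per exon length, the first 3 levels in control were HOXB7 at a mean of 16.2 RPKM (CPM per kilobase of annotated exon), TGIF1 at 15.1 and HOXB9 at 9.86. With TGF-β1 the first 3 were HOXB7 at 15.1, TGIF1 at 10.7 and HOXD10 at 8.68 RPKM, and with acetate they were MEIS3 at 13.1, HOXB7 at 11.96 and TGIF1 at 9.83 RPKM. HOXD10 stood at 3.19 RPKM in control and MEIS3 at 4.73.

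Antisense and other long RNAs of the HOX clusters had 8 of 16 tested genes higher and 3 lower after TGF-β1, and 2 higher and 4 lower of 17 with acetate. The share called was 68.8% and 35.3%, beside 66.9% and 63.7% of all genes, and the latter pair is the background for each list that follows. HAGLR, a long RNA at the anterior end of HOXD, averaged 0.339 ± 0.138 CPM in control, 0.817 ± 0.304 after TGF-β1 and 3.16 ± 0.445 with acetate. Its rise was 1.30 ± 0.33 (edgeR adjusted p = 0.0021) for TGF-β1 and 1.94 ± 0.21 (edgeR adjusted p = 7.5e-07) for acetate. With acetate HOXD10 and HOXD11 were lower, HOXD4, HOXD8 and HOXD9 were not called, and HOXD1 and HOXD3 were not tested. HOXD1 held 6, 1, 5 and 2 counts with TGF-β1 and 8, 10, 8 and 9 with acetate. HOXD3 held 4, 7, 4 and 6 counts with TGF-β1 and 8, 4, 8 and 9 with acetate. Exons of both overlap those of HAGLR on the opposite strand. HOXA-AS2, antisense in the HOXA cluster, averaged 8.63 ± 0.511 CPM in control, 12.2 ± 0.792 after TGF-β1 and 6.84 ± 0.249 with acetate, with changes of 0.51 ± 0.07 (edgeR adjusted p = 4.1e-06) and -0.83 ± 0.07 (edgeR adjusted p = 3.9e-08). Its course was that of HOXA3, with which it shares sequence on the opposite strand.

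Polycomb genes encode the repressors that keep HOX genes silent. Of 33 tested, 14 were higher and 10 lower after TGF-β1, and 4 were higher and 18 lower with acetate, a share called of 72.7% and 66.7%, near the background. The median log2 fold change with acetate was -0.14, and 0.03 over all genes. JARID2, a subunit that guides PRC2 to DNA, averaged 20.0 ± 0.641 CPM in control, 106 ± 1.74 after TGF-β1 and 67.5 ± 4.63 with acetate, at 2.41 ± 0.04 (edgeR adjusted p = 6.5e-18) and -0.64 ± 0.04 (edgeR adjusted p = 4.6e-09). PHF19, another PRC2 partner, averaged 72.7 ± 2.12 CPM in control, 58.4 ± 2.74 after TGF-β1 and 22.7 ± 0.514 with acetate. Of 23 Trithorax and H3K27 demethylase genes, which oppose Polycomb, 6 were higher and 10 lower after TGF-β1, and 7 higher and 8 lower with acetate (69.6% and 65.2% called, near the background). KDM6B, an H3K27 demethylase, averaged 12.1 ± 0.834 CPM in control, 42.9 ± 1.94 after TGF-β1 and 22.3 ± 5.50 with acetate, and its rise after TGF-β1 was 1.83 ± 0.05 (edgeR adjusted p = 2.2e-14).

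Retinoic acid is a known inducer of HOX genes. Retinoid signalling genes had 9 of 16 higher and 5 lower after TGF-β1 and 10 of 17 higher and 5 lower with acetate, a share called of 87.5% and 88.2%. RDH10, which oxidises retinol, averaged 35.9 ± 1.09 CPM in control, 12.5 ± 0.519 after TGF-β1 and 27.6 ± 0.780 with acetate. ALDH1A1, which makes retinoic acid from retinal, averaged 8919 ± 298 CPM in control, 13781 ± 311 after TGF-β1 and 6736 ± 105 with acetate. RDH10 was lowest and ALDH1A1 highest with TGF-β1.

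For the partners of sine oculis proteins, 4 of 8 were higher and 4 lower after TGF-β1, and 4 higher and 3 lower with acetate (100% and 87.5% called). EYA4, a coactivator of sine oculis factors, averaged 46.0 ± 1.05 CPM in control, 17.1 ± 0.452 after TGF-β1 and 27.1 ± 1.32 with acetate. Of 16 SMAD corepressor and TGIF partner genes, 11 were higher and 5 lower after TGF-β1, and 5 higher and 8 lower with acetate (100% and 81.2% called). SKIL, a SMAD corepressor, averaged 238 ± 14.7 CPM in control, 482 ± 14.1 after TGF-β1 and 457 ± 42.8 with acetate, and SMAD3, a receptor-activated SMAD, averaged 173 ± 6.37 CPM in control, 66.9 ± 1.04 after TGF-β1 and 89.4 ± 6.79 with acetate. BMP pathway genes, which lie upstream of MSX and DLX, had 8 of 18 higher and 6 lower after TGF-β1, and 8 of 20 higher and 8 lower with acetate (77.8% and 80% called). BMP4, a ligand, averaged 10.9 ± 0.675 CPM in control, 1.56 ± 0.259 after TGF-β1 and 10.1 ± 1.496 with acetate, and ID2, a BMP target, averaged 63.2 ± 1.32 CPM in control, 20.1 ± 1.72 after TGF-β1 and 18.5 ± 1.77 with acetate. Both were lower after TGF-β1. A part of BMP signalling in the MSX and DLX changes was not tested.

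Homeobox genes of other families had 33 of 63 tested genes higher and 16 lower after TGF-β1 and 30 of 66 higher and 12 lower with acetate, with medians of 0.31 and 0.21 and a share called of 77.8% and 63.6%. PRRX2, a limb mesenchyme gene, averaged 1.06 ± 0.189 CPM in control, 2.69 ± 0.188 after TGF-β1 and 10.7 ± 0.662 with acetate, and its acetate change was 2.00 ± 0.09 (edgeR adjusted p = 1.9e-11).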

How the data were processed

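RNA of 12 A549 libraries was measured after ribosomal RNA removal in stranded libraries. Per the labels and the submitters' processing notes, the authors used bcl2fastq, HISAT2, hg38 and limma. How reads were counted (tool, strand setting, annotation) and the tools' versions were not given in the sources used here. The authors deposited 2 tables of whole-number counts per gene, with 24459 and 24745 genes and 23771 shared. The tables also hold the authors' log2 fold change, p-value and q-value per gene, per the file headers. The authors' deposited table had the same sign of change as found here for 54 of 54 members (TGF-β1) and 54 of 56 (acetate). A further 32 columns of values per library were not used.

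Counts were tested with edgeR 4.0.16 in R 4.3.3 (filterByExpr with a minimum count of 10 and total of 15, TMM factors, glmQLFit and glmQLFTest, two-sided, Benjamini-Hochberg adjustment over all tested genes, threshold 0.05). The first 2 comparisons were fitted within 1 table each, and acetate against control over all 12 libraries, in 1 fit on the genes both tables share. The fits carried no covariates. Standard errors are the log2 fold change divided by the root of the F statistic. CPM use TMM-adjusted totals of the joint fit, and RPKM use exon lengths of GENCODE 29, which gave the same coordinates as the files for all 58 members. The fit was tested on simulated data. Alternatives were library totals, RLE size factors, no filter on low counts, DESeq2 1.42.0, limma-voom (limma 3.58.1), all 12 libraries joined, and each library left out.

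Members with a mean of at least 1 CPM in any group are described per library. Some genes are not reported here, though they stay in the fits and counts. Rarer members appear by counts or group values, mostly where a change of at least 2-fold was called. From each of the 8 background lists, genes among the 3 smallest p-values of either of the first 2 comparisons are named. The members and lists were chosen with earlier results of these data known.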

Additional observations from a re-analysis of the deposited data

Results flagged for a closer look

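In 5 of 138 combinations of a gene and a group (46 genes), 1 library stood apart from the other 3 by a gap that took most of the range of the group (Dixon's test). Chance gives about 1 in 20 such groups. HOXA4 read 0.458 CPM in acetate library S25, below 0.520 to 0.528 CPM. HOXB6 read 12.95 CPM in control library S3, above 10.9 CPM in the other 3. IRX2 read 3.47 CPM in acetate library S22, below 3.64 to 3.66 CPM. In TGF-β1 library S15, SIX4 read 8.95 CPM, above 7.28 to 7.54 CPM, and TGIF2 read 16.4 CPM, below 18.8 to 18.9 CPM.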

How the results depend on the processing

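Scaling by library totals shifted the median log2 fold change of all genes from 0.02 to -0.09 for TGF-β1, from 0.03 to 0.16 for acetate and from 0.02 to 0.07 for acetate against control. Over 6 settings other than leaving out a library, 319 of 324 values for TGF-β1 kept their side of the threshold, as did 326 of 336 for acetate, and 273 of 280 over 5 settings for acetate against control. Among these, 3, 16 and 3 values changed sign, and none of those was called. TGIF1 with acetate turned from -0.12 to 0.0147 with library totals. Family counts that moved with library totals were HOXC and HOXD genes lower after TGF-β1 (1 each, from 0), HOXA genes with acetate (2 higher from 1, 3 lower from 6) and HOXC genes lower against control (0, from 1). With no filter 1 HOXD gene was higher with acetate (from 0), and with DESeq2 3 sine oculis, DLX and MSX genes were higher (from 5). The cause of these shifts was not tested.

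Leaving out each library in turn gave 21 to 24 members higher and 13 to 16 lower for TGF-β1, 17 to 20 and 16 to 19 for acetate, and 24 to 25 and 16 to 18 for acetate against control. After TGF-β1, sine oculis, DLX and MSX genes called lower ranged from 0 to 3 and HOXC genes from 0 to 1. With acetate, sine oculis, DLX and MSX genes called higher ranged from 3 to 5. Against control, HOXC genes called lower ranged from 0 to 1 and HOXD genes from 0 to 1, the changes coming without S25. No paired analysis was possible because the count columns carry no replicate numbers. Depth limits HOXD1, HOXD3, HOXD4, IRX4 and SIX3, which rest on few counts per library.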

Other observations

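Precursor transcripts of 2 miRNAs that lie in HOX clusters were measured as genes, and they were picked after their values were seen. MIR10A, which overlaps an exon of HOXB4, had 30, 31, 25 and 26 counts in control, 11, 8, 14 and 8 counts with TGF-β1 and 10, 38, 24 and 33 counts with acetate. Its TGF-β1 libraries lay below all control libraries, and in CPM acetate library S22 (0.278 CPM) lay just above the highest TGF-β1 library (S17, 0.276 CPM). The log2 fold changes were -1.26 ± 0.25 for TGF-β1 (edgeR adjusted p = 0.00032) and 1.41 ± 0.35 for acetate (edgeR adjusted p = 0.0023). MIR196A1, upstream of HOXB9, had 16, 16, 11 and 11 counts in control, 30, 15, 23 and 28 counts with TGF-β1 and 23, 16, 12 and 21 counts with acetate. In CPM control (0.207 to 0.328 CPM) lay below TGF-β1 (0.428 to 0.735 CPM) without overlap, at 1.01 ± 0.28 (edgeR adjusted p = 0.0042), and the acetate change was not called at -0.34 ± 0.28 (edgeR adjusted p = 0.32). Reads of the host transcript can be counted for either precursor, so these values do not measure the mature miRNA. Mature sequences from RefSeq (GRCh38.p14, minus strand of chromosome 17) are shown with the seed, bases 2 to 8, in capitals, because the 2 seeds differ.
hsa-miR-10a-5p: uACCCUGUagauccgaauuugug
hsa-miR-196a-5p: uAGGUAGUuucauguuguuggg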
